A study of Rattus norvegicus with 88 samples.

Results

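Expression of 4 genes of the glucocorticoid system was examined in outbred Heterogeneous Stock (HS) rats, in the orbitofrontal cortex: the receptor genes Nr3c1 and Nr3c2 and the responsive genes Fkbp5 and Sgk1. They were taken by their Ensembl identifiers, ENSRNOG00000022523 (Fkbp5), ENSRNOG00000011815 (Sgk1), ENSRNOG00000014096 (Nr3c1) and ENSRNOG00000034007 (Nr3c2), and all 4 had a row among the 17123 genes measured. HS rats are bred from inbred founder strains, so that each animal carries its own mosaic of founder chromosomes. No rat had been tested in behaviour or dosed with a drug, animals shared cages, the cortex of both hemispheres was dissected from frozen sections, and polyadenylated RNA was sequenced from each rat separately. The labels described 88 samples, of which 8 had no column in the table, which left 80 libraries, 41 from males and 39 from females. Over all samples the labels count more males than females, 45 and 43, while the text of the study gives these counts the other way round. The labels were used, and the direction of each male minus female value rests on them. Each rat also carried a batch number, called rat batch in the labels with no further definition. Batch 2 held 11 males and 4 females, batch 3 held 10 and 12, batch 4 held 12 and 14, batch 6 held 8 and 8, and batch 5 held 1 female. The labels gave no age, time of day or hormone measurement.

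Corticosterone, the main glucocorticoid of the rat, enters the brain and acts through a pair of nuclear receptors that bind DNA once hormone is bound. Nr3c1 encodes the glucocorticoid receptor, which is occupied mainly when hormone is high during stress or at the daily peak, and Nr3c2 encodes the mineralocorticoid receptor, which has a higher affinity and is occupied at low hormone levels. Fkbp5 encodes an Hsp90 co-chaperone that lowers the affinity of the glucocorticoid receptor for hormone and is itself induced by the receptor, which closes a short feedback loop. Sgk1 encodes a kinase that regulates ion channels and transporters, and it is induced by glucocorticoids and by several other stimuli in brain.

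The sequences just before the starts of Fkbp5 and Sgk1 are shown because these are the hormone-responsive genes of the group and their promoters differ in base composition. They are RefSeq sequences on assembly GRCr8, not the Rnor_6.0 build of the submitters' processing notes. They cover the 250 bases before a transcript start, printed 5′ to 3′ on the gene's strand. Matches to TATAAA, the letters of the TATA box motif, are in capitals, and whether any acts as a TATA box was not tested. Of the 4 genes, 3 had a promoter in the table, with 1 start for Fkbp5, 3 for Sgk1 and 2 for Nr3c1. The stretch before Fkbp5 lies on the minus strand at chr20:6543556-6543805, and those before starts 1 and 3 of Sgk1 lie on the minus strand at chr1:24807232-24807481 and chr1:24804832-24805081.
Fkbp5: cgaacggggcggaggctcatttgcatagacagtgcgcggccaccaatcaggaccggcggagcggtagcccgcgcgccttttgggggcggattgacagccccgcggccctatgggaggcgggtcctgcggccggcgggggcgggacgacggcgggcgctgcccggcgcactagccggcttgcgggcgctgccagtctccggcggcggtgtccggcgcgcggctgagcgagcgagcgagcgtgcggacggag
Sgk1 start 1: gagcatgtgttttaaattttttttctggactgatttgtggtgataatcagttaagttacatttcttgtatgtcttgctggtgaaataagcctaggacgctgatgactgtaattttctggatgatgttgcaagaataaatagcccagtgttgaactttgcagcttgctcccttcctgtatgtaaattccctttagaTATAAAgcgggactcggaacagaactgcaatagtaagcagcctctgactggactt
Sgk1 start 3: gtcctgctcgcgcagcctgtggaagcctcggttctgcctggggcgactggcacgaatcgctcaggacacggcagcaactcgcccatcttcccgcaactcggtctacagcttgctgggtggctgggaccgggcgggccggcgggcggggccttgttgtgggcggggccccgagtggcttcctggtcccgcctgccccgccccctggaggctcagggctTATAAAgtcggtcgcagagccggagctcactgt

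The Fkbp5 stretch had a GC content of 76.0%, against a median of 51.2% over 33469 promoters, and held no TATAAA. The 3 Sgk1 stretches had 39.2%, 49.6% and 69.6%, and TATAAA began 55 bases before start 1 and 33 bases before start 3. The 2 Nr3c1 stretches, not shown, had 64.0% and 78.4%, so a high GC content was not particular to Fkbp5. On the gene's strand TATAAA was present in 8.06% of all promoters of this length. The inverted glucocorticoid response element (AGAACA, NNN and TGTTCT in a row) and the single site AGAACA were searched on both strands, and each inverted element holds the single site. The inverted element was found in 0.012% of all promoters and the single site in 17.5%, and neither was found in the 6 stretches of Fkbp5, Sgk1 and Nr3c1. These letters were searched only in the 250 bases before each start.

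Levels are given as log2(normalized count + 1), the scale of the deposited table, or as normalized counts, which are read counts scaled by the authors to a common upper quartile. A difference of 1 on the log2 scale is a doubling for genes at these counts. Recovered depth, worked out from the steps between values, had a median of 18.1 M reads (M is the prefix mega), with 5.67 M in the shallowest library and 25.6 M in the deepest. The smallest number of reads behind a value was about 418 for Nr3c1, 438 for Fkbp5, 467 for Sgk1 and 57.9 for Nr3c2, so that counting error was largest for Nr3c2. Normalized counts are not scaled to transcript length, so levels are compared between rats and not between genes. In bulk tissue, fewer cells of a type and less RNA per cell cannot be told apart. The table pairs no identifiers with names, so the tissue label was not checked against marker genes.

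The responsive genes varied more among rats than the receptor Nr3c1. Over the 80 libraries Fkbp5 ranged from 750 to 2276 normalized counts with a median of 1197.5, and its log2 level was 10.29 ± 0.39 (SD, n = 80). Sgk1 ranged from 665 to 2767 with a median of 1194.5, and its log2 level was 10.27 ± 0.42 (SD, n = 80). The highest rat thus stood 3.03-fold above the lowest for Fkbp5 and 4.16-fold for Sgk1. Nr3c1 ranged only from 1043 to 2080 with a median of 1546.5, a 1.99-fold span, and its log2 level was 10.60 ± 0.19 (SD, n = 80). Nr3c2 ranged from 123 to 402 with a median of 253, a 3.27-fold span, and its log2 level was 7.97 ± 0.33 (SD, n = 80).

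Part of this spread lay within rats of the same sex and rat batch. After both were removed, the SD of the log2 level over 79 rats was 0.324 for Fkbp5, 0.326 for Sgk1, 0.252 for Nr3c2 and 0.160 for Nr3c1. Among 14803 genes with a mean log2 level of at least 3, the median SD was 0.203. A smaller SD than that of Fkbp5 was found in 73.3% of these genes, against 73.4% for Sgk1, 62.7% for Nr3c2 and 33.1% for Nr3c1. The glucocorticoid receptor was therefore less variable than the median gene and the other 3 genes were more variable, which is a description with no test. Lower counts carry more counting error, and the genes compared were not matched for level. The mean log2 level of Nr3c1 lay above that of 85.1% of all genes. The share of counting error in the SD of Nr3c2 was not tested.

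**Figure D1:**
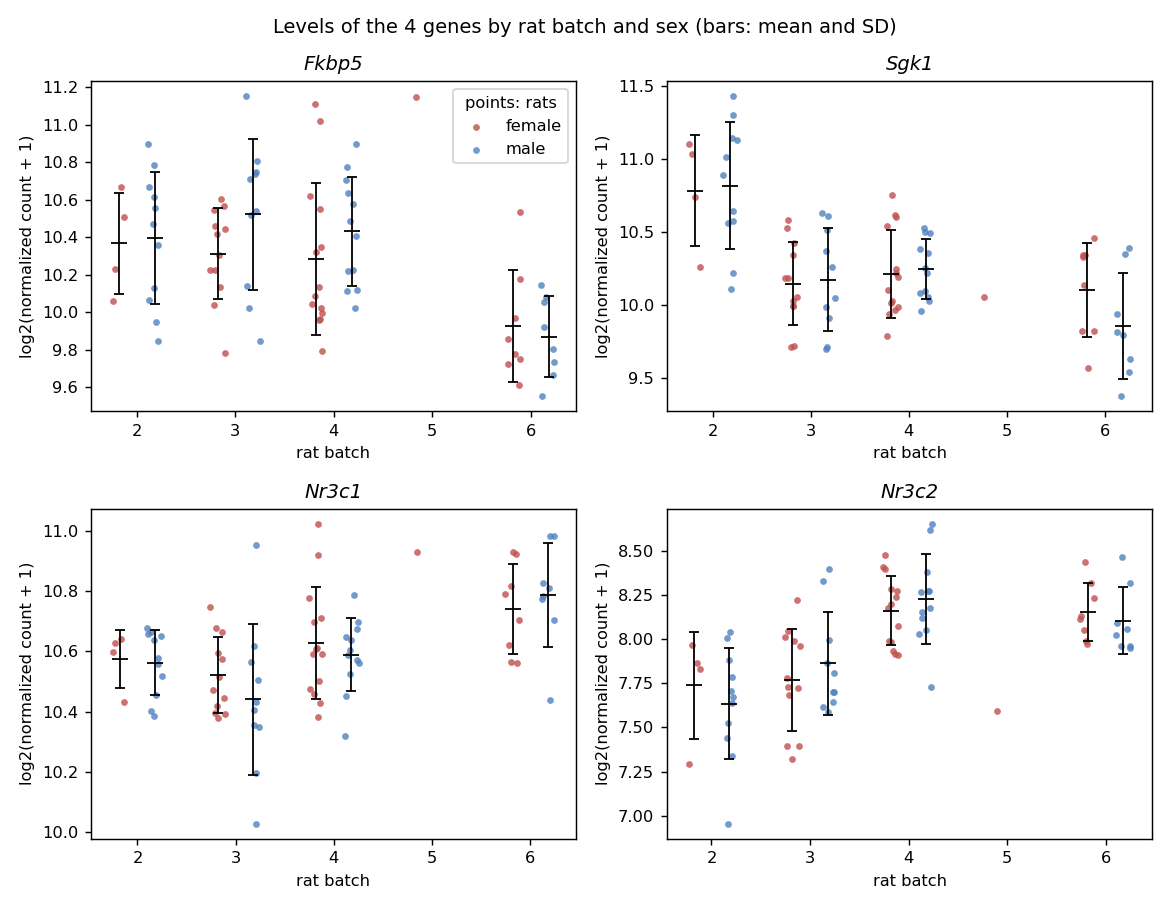
Level of Fkbp5, Sgk1, Nr3c1 and Nr3c2 as log2(normalized count + 1) on the vertical axis by rat batch on the horizontal axis. Each point is 1 rat, females in red and males in blue, and bars give the mean and SD of each sex within a batch (batch 5 is a single female). Fkbp5 is lowest in batch 6, Sgk1 is highest in batch 2, and Nr3c2 is lower in batches 2 and 3 than in batches 4 and 6.

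The first comparison asked whether males and females differed. None of the 4 genes differed between the sexes once rat batch was accounted for, and the ranges of the sexes overlapped widely. Normalized counts of Fkbp5 spanned 750 to 2276 among males, with a median of 1311, and 782 to 2269 among females, with a median of 1195. Its log2 level was 10.33 ± 0.39 (SD, n = 41) for males and 10.25 ± 0.38 (SD, n = 39) for females, and the fitted difference was 0.10 higher in males, with a 95% interval from -0.04 to 0.25 (limma adjusted p = 0.819). Over all genes, 0.0584% were called higher in males and 0.0584% higher in females. Counts of Sgk1 spanned 665 to 2767 among males and 760 to 2200 among females, and the fitted male minus female difference was -0.03, with an interval from -0.17 to 0.12 (limma adjusted p = 0.976).

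The receptors showed the narrowest intervals. Counts of Nr3c1 spanned 1043 to 2023 among males and 1329 to 2080 among females, and its male minus female difference on the log2 scale was -0.03, with an interval from -0.10 to 0.04 (limma adjusted p = 0.936). Counts of Nr3c2 spanned 123 to 402 among males and 156 to 355 among females, with a difference of 0.02 and an interval from -0.09 to 0.14 (limma adjusted p = 0.975). These intervals hold for the model with rat batch and do not show that the sexes were equal. With 20 principal components as further terms the differences were 0.16 for Nr3c1 and -0.35 for Nr3c2, neither past the threshold (limma adjusted p = 0.718 and 0.682). That of Fkbp5 was -0.46 in that model (limma unadjusted p = 0.0374, adjusted 0.588). The components were computed from the same values with sex left in, so they can take up part of the sex term. The differences in that model are therefore not comparable with the intervals above. In the model with rat batch and no components, 0 of the 4 genes had an unadjusted p under 0.05.

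Nor was a sex difference found inside a single batch. The sex difference of Fkbp5, male minus female on the log2 scale, was 0.03 (batch 2), 0.21 (batch 3), 0.15 (batch 4) and -0.05 (batch 6). That of Sgk1 was 0.04, 0.03, 0.03 and -0.25 in the same order, the last from 8 males between 665 and 1347 normalized counts and 8 females between 760 and 1411 (limma adjusted p = 0.901). The interaction of sex and rat batch was not past the threshold for any of the 4 genes (limma adjusted p = 1.000 for each). By limma it was called in 0% of all genes. Of the 17123 genes, 451 had an unadjusted p under 0.05, a smaller share than the 0.05 that would arise with no interaction in any gene.

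The second comparison asked how the levels differed between rat batches 2, 3, 4 and 6, which hold 79 of the libraries. All 4 genes differed between batches, each with its own order. In the same F test 64.7% of all genes were called, so the call of all 4 is read against that share. The distance from the lowest to the highest batch mean, adjusted for sex, was 0.84 for Sgk1, 0.54 for Nr3c2, 0.51 for Fkbp5 and 0.28 for Nr3c1 on the log2 scale. A smaller distance was found in 89.1% of all genes for Sgk1, 74.7% for Nr3c2, 73.0% for Fkbp5 and 43.8% for Nr3c1. The limma adjusted p was 7.38e-09 for Sgk1, 9.43e-09 for Nr3c2, 3.77e-05 for Fkbp5 and 4.15e-05 for Nr3c1.

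Fkbp5, the co-chaperone of the receptor, was lower in batch 6 than in each of the other batches. Batch 6 ranged from 750 to 1480 normalized counts with a median of 909.5, batch 2 from 920 to 1907 with a median of 1420, batch 3 from 881 to 2276 with a median of 1399 and batch 4 from 885 to 2208 with a median of 1237.5. Of the 10 lowest rats, 8 were from batch 6, and 15 of the 15 rats of batch 2, 21 of 22 of batch 3 and 25 of 26 of batch 4 lay above the median of batch 6. The ranges still overlapped. Log2 levels were 9.90 ± 0.25 for batch 6 (SD, n = 16), 10.39 ± 0.32 for batch 2 (SD, n = 15), 10.41 ± 0.34 for batch 3 (SD, n = 22) and 10.35 ± 0.36 for batch 4 (SD, n = 26).

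Adjusted for sex, Fkbp5 in batch 6 differed by -0.46 from batch 2 (SE 0.11, limma adjusted p = 0.000380), by -0.51 from batch 3 (SE 0.10, limma adjusted p = 2.08e-05) and by -0.46 from batch 4 (SE 0.10, limma adjusted p = 0.00109). The share of genes called lower in batch 6 was 26.6%, 25.1% and 7.49% in these 3 comparisons. Batches 2, 3 and 4 were not distinguished from each other in Fkbp5, with log2 differences of 0.05 (batch 3 minus 2, SE 0.11, with 4.56% of genes called higher in batch 3), -0.01 (4 minus 2, SE 0.10) and -0.06 (4 minus 3, SE 0.09). Without batch 6 the F test for Fkbp5 gave a limma adjusted p of 0.837, so its batch difference rested on that batch.

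Sgk1, the hormone-induced kinase, was highest in batch 2. Batch 2 ranged from 1104 to 2767 normalized counts with a median of 1902, against 833 to 1584 with a median of 1114 in batch 3, 885 to 1729 with a median of 1182 in batch 4 and 665 to 1411 with a median of 945.5 in batch 6. Of the 15 rats of batch 2, 10 lay above every rat of batch 3, 8 above every rat of batch 4 and 12 above every rat of batch 6. The 10 highest rats comprised 9 of batch 2, 6 males and 3 females, and 1 of batch 4. Log2 levels were 10.81 ± 0.41 for batch 2 (SD, n = 15), 10.16 ± 0.31 for batch 3 (SD, n = 22), 10.23 ± 0.26 for batch 4 (SD, n = 26) and 9.98 ± 0.36 for batch 6 (SD, n = 16).

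The level of Sgk1 in batch 2 was 1.58-fold that in batch 3 (log2 difference, batch 3 minus 2, -0.66, SE 0.11, limma adjusted p = 2.59e-05), higher than that in batch 4 (-0.59, SE 0.10, limma adjusted p = 1.82e-06) and 1.79-fold that in batch 6 (-0.84, SE 0.11, limma adjusted p = 2.57e-09). Genes called higher in batch 2 made up 5.23%, 24.1% and 26.6% of the table in these comparisons. The other pairs were not past the threshold, the widest being batch 6 minus 4 at -0.25 (SE 0.10, limma adjusted p = 0.0837). Without batch 2 the F test for Sgk1 gave a limma adjusted p of 0.0573. In batch 2 Sgk1 was thus high while Fkbp5 was not distinguished from batches 3 and 4. Both genes had their lowest batch mean in batch 6, where Sgk1 was called lower only against batch 2.

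With sex alone in the model, the receptor genes were both higher in batch 6 than in batches 2 and 3, Nr3c1 by little and Nr3c2 by more. None of these 4 differences was past the threshold once the order of the table's columns, described further on, was also in the model. Nr3c1 ranged on the log2 scale from 10.39 to 10.68 in batch 2 (median 10.60), from 10.03 to 10.95 in batch 3 (median 10.46), from 10.32 to 11.02 in batch 4 (median 10.60) and from 10.44 to 10.98 in batch 6 (median 10.79). Its log2 levels were 10.57 ± 0.10 for batch 2 (SD, n = 15), 10.49 ± 0.19 for batch 3 (SD, n = 22), 10.61 ± 0.16 for batch 4 (SD, n = 26) and 10.76 ± 0.16 for batch 6 (SD, n = 16). In batch 6, 12 of 16 rats lay above every rat of batch 2, and 7 of the 10 lowest rats were from batch 3. Batch 6 exceeded batch 3 in Nr3c1 by 0.28 (SE 0.05, limma adjusted p = 4.60e-06), batch 2 by 0.19 (SE 0.06, limma adjusted p = 0.00337) and batch 4 by 0.16 (SE 0.05, limma adjusted p = 0.0271), and batch 4 exceeded batch 3 by 0.12 (SE 0.05, limma adjusted p = 0.0221). Genes called higher in the later batch made up 25.8%, 27.2%, 6.11% and 21.2% of the table.

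Nr3c2 ranged from 123 to 262 normalized counts in batch 2 and from 159 to 337 in batch 3, against 211 to 402 in batch 4 and 246 to 353 in batch 6, with median log2 levels of 7.71, 7.75, 8.19 and 8.08. Log2 levels were 7.66 ± 0.30 for batch 2 (SD, n = 15), 7.81 ± 0.29 for batch 3 (SD, n = 22), 8.19 ± 0.22 for batch 4 (SD, n = 26) and 8.13 ± 0.17 for batch 6 (SD, n = 16). Of the 26 rats of batch 4, 19 lay above every rat of batch 2, and 9 of the 10 lowest rats were from batches 2 and 3 (5 and 4) and the other from batch 5. The mineralocorticoid receptor gene was 1.45-fold higher in batch 4 than in batch 2 (log2 difference 0.54, SE 0.08, limma adjusted p = 6.38e-08) and 1.30-fold higher than in batch 3 (0.38, SE 0.07, limma adjusted p = 1.04e-05), where 24.5% and 21.2% of genes were called higher in batch 4. It was 1.39-fold higher in batch 6 than in batch 2 (0.47, SE 0.09, limma adjusted p = 7.44e-06) and 1.24-fold higher than in batch 3 (0.32, SE 0.08, limma adjusted p = 0.000807). Batches 2 and 3 were not distinguished (0.16, SE 0.08, limma adjusted p = 0.254), nor were batches 4 and 6 (-0.06, SE 0.08, limma adjusted p = 0.645).

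**Figure D2:**
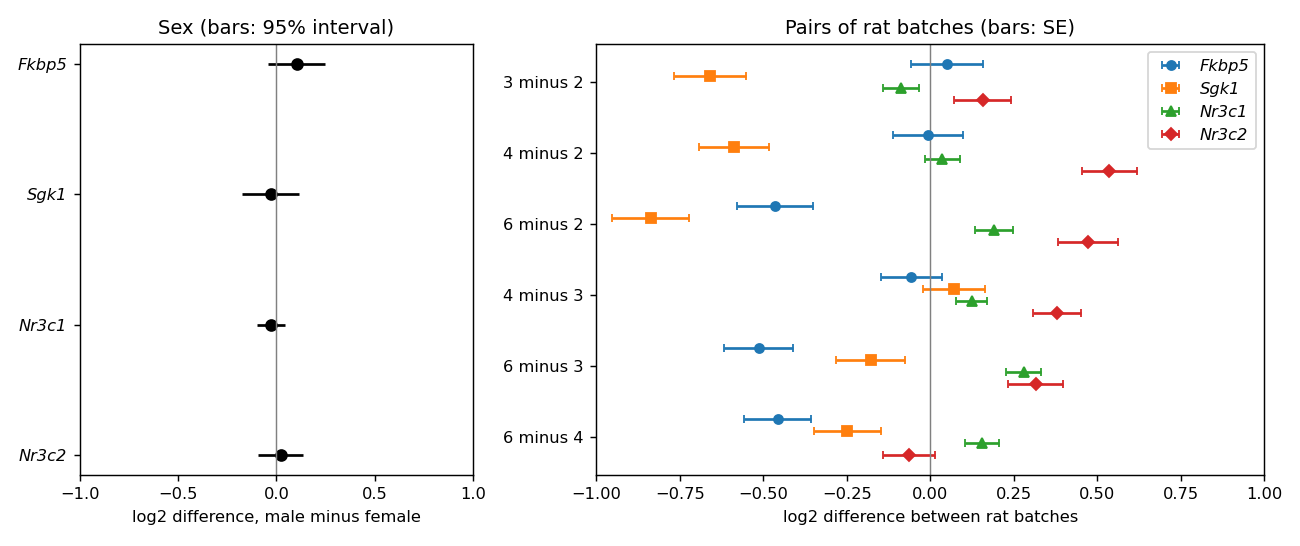
Left, log2 difference of each gene between the sexes, male minus female, with rat batch in the model and bars for the 95% interval. Right, log2 difference between each pair of rat batches with sex in the model and bars for the SE; Sgk1 is negative against batch 2 in 3 pairs, Fkbp5 is negative in the 3 pairs with batch 6, and Nr3c2 is positive in the 4 pairs of batches 4 and 6 against 2 and 3.

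The log2 level of Nr3c2 less that of Nr3c1 in the same rat was -2.90 ± 0.32 for batch 2 (SD, n = 15), -2.67 ± 0.31 for batch 3 (SD, n = 22), -2.42 ± 0.23 for batch 4 (SD, n = 26) and -2.63 ± 0.26 for batch 6 (SD, n = 16). By column run, a grouping of the table described further on, it was -2.92 ± 0.28 for run 1 (SD, n = 21), -2.61 ± 0.25 for run 2 (SD, n = 13) and -2.51 ± 0.29 for run 3 (SD, n = 46). Its size depends on transcript length and is read only between groups of rats, for which no test was run. The single female of batch 5 stood at 2269 normalized counts of Fkbp5, the second highest value among 80, and at 1950 of Nr3c1, the fifth highest. Her Sgk1 count was 1063 and her log2 level of Nr3c2 was 7.59, the 10th lowest.

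The order of columns in the table bears on these differences. The columns form 3 stretches in each of which the rat identifiers ascend, here called column runs, and what they stand for is not stated in the labels. Run 1 held 14 rats of batch 2 and 7 of batch 3, run 2 held 1 of batch 2 and 12 of batch 3, and run 3 held 3 of batch 3, 26 of batch 4, 1 of batch 5 and 16 of batch 6. Mean recovered depth was 17.2 M reads in run 1, 14.3 M in run 2 and 19.4 M in run 3, and log2 depth as a further term left all 4 batch differences past the threshold. Batches 4 and 6 lie wholly in run 3, so the low Fkbp5 of batch 6 against batch 4 was measured inside 1 run. For batches 2 and 4, which share no run, batch and run cannot be told apart without batch 3.

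With run as a further term, 18.6% of genes were still called between batches, and the calls of the 4 genes parted. In that model batches 2 and 3 are tied to batches 4 and 6 only through the 3 rats of batch 3 in run 3. Sgk1 stayed past the threshold, as did Fkbp5, whereas Nr3c1 gave a limma adjusted p of 0.0636 and Nr3c2 one of 0.699. For Nr3c1 the pair of batches 4 and 6, inside run 3, was still past the threshold in that model (0.16, SE 0.05, limma adjusted p = 0.0153). It was the only 1 of 4 pair calls of Nr3c1 that the run term left, since batch 6 exceeded batch 2 by 0.05 (SE 0.11, limma adjusted p = 0.838) and batch 3 by 0.07 (SE 0.09, limma adjusted p = 0.709), and batch 4 minus 3 was -0.08 (SE 0.09, limma adjusted p = 0.748).

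For Nr3c2 the run term left 0 of 4 pair calls of limma. The fitted differences turned negative by amounts close to their SE, so their direction is not established. Batch 6 then differed by -0.19 from batch 2 (SE 0.17, limma adjusted p = 0.519) and by -0.19 from batch 3 (SE 0.14, limma adjusted p = 0.479), and batch 4 by -0.13 from each (limma adjusted p = 0.716 and 0.753). For Fkbp5 it left 2 of 3 pair calls, and batch 6 minus 2 was -0.60 (SE 0.24, limma adjusted p = 0.0961). For Sgk1 it also left 2 of 3, and batch 4 minus 2 was -0.66 (SE 0.24, limma adjusted p = 0.0903). The run term also widened the SE, for Nr3c2 in batch 4 minus 2 from 0.08 to 0.17. The share of all genes that kept a call in these pairs was not worked out. The lost pair calls are thus not shown to be particular to these genes. Inside run 1, Sgk1 was lower in the 7 rats of batch 3, from 839 to 1532 normalized counts, than in the 14 rats of batch 2, from 1104 to 2767. The log2 difference there was -0.81 (SE 0.18, limma adjusted p = 0.0339), in a comparison where 1.1% of genes were called higher in batch 2 and 0.841% higher in batch 3. The single rat of batch 2 in run 2 had 1230 counts of Sgk1, inside the range of the 12 rats of batch 3 in that run, from 833 to 1567. Fkbp5 inside run 1 was 0.32 higher in batch 3 than in batch 2 (SE 0.16, limma adjusted p = 0.262). Inside batch 3, Fkbp5 in run 2 differed by -0.30 from run 1 (SE 0.14, limma adjusted p = 0.252). Neither was past the threshold.

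Inside batch 3, Nr3c2 was higher in the rats of run 3 than in those of run 2. The 3 rats of batch 3 in run 3 had 298, 321 and 337 normalized counts of Nr3c2, while the 19 others of that batch ranged from 159 to 263 and 0 of them reached the lowest of the 3. Against the 12 rats of run 2 the log2 level of these 3 was 0.54 higher (SE 0.14, limma adjusted p = 0.0253), with 3.44% of genes called higher in run 3 and 4.49% higher in run 2. Against the 7 rats of run 1 they were 0.64 higher (SE 0.15), which was not past the threshold (limma adjusted p = 0.0690), with 0.175% of genes called higher in run 3 and 0.701% higher in run 1. Runs 1 and 2 of batch 3 were not distinguished in Nr3c2, which was 0.12 higher in run 2 (SE 0.11, limma adjusted p = 0.580), with 1.02% of genes called higher in run 2 and 0.888% higher in run 1. Inside run 3 the 26 rats of batch 4 differed from these 3 by -0.11 (SE 0.13, limma adjusted p = 0.770). These comparisons rest on 3 rats, and 0% of all genes were called by limma between batches 3 and 4 inside run 3. Rat batch accounted for 44.6% of the variance of Nr3c2 over the 80 libraries and run for 51.0%, against 30.7% and 30.6% for Nr3c1, 43.6% and 23.3% for Sgk1 and 31.9% and 4.62% for Fkbp5.

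**Figure D3:**
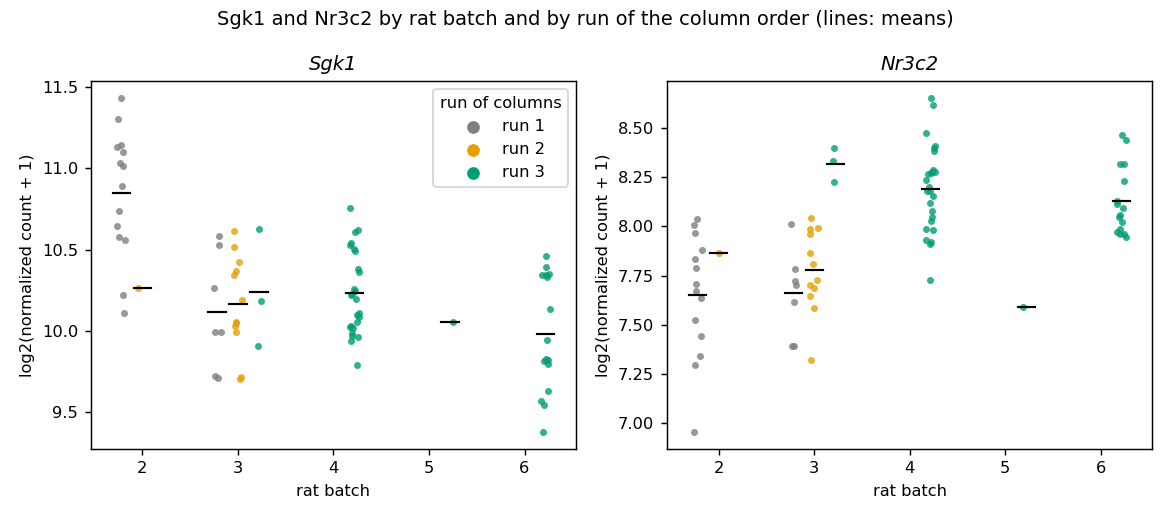
Level of Sgk1 (left) and Nr3c2 (right) as log2(normalized count + 1) by rat batch on the horizontal axis, with points for rats coloured by column run and lines for the mean of each run within a batch. In Sgk1 the rats of batch 2 in run 1 stand above those of batch 3 in the same run, and in Nr3c2 the 3 rats of batch 3 in run 3 stand with batches 4 and 6.

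The third comparison asked whether the 4 genes rose and fell together from rat to rat. Once sex and rat batch were removed, none of the 6 pairs was correlated past the threshold over 79 rats. With the first 20 principal components of expression also removed, 2 pairs were: Fkbp5 and Sgk1 at 0.27 (adjusted permutation p = 0.0409), with the opposite sign, and Fkbp5 and Nr3c1 at -0.43 (adjusted permutation p = 0.00192). The permutations made no allowance for the 20 components removed. These p are therefore too small, and the call at 0.0409 is not secure. For Fkbp5 and Sgk1, both known targets of the receptor, Pearson's r was -0.07 (permutation p = 0.559, adjusted over 6 pairs 0.779) and Spearman's rho was -0.06 (permutation p = 0.604, adjusted 0.906). Without the 2 rats farthest from the median of Fkbp5, r was -0.05. The widest r was that of the receptors, Nr3c1 with Nr3c2, at 0.15 (permutation p = 0.186, adjusted 0.779), with a rho of 0.14 (permutation p = 0.208, adjusted 0.848), and it was 0.09 without the 2 farthest rats. Nr3c1 had an r of -0.05 with Fkbp5 (permutation p = 0.649, adjusted 0.779) and of -0.10 with Sgk1 (permutation p = 0.385, adjusted 0.779). Nr3c2 had an r of 0.10 with Fkbp5 (permutation p = 0.407, adjusted 0.779) and of 0.01 with Sgk1 (permutation p = 0.910, adjusted 0.910).

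Over the 80 libraries with no term removed, 2 pairs passed the threshold. Here rats were permuted across batches, so these p make no allowance for the differences between batches given above. Sgk1 and Nr3c2 had an r of -0.27 (permutation p = 0.0165, adjusted 0.0494) and a rho of -0.26 (permutation p = 0.0212, adjusted 0.0635). Nr3c1 and Nr3c2 had an r of 0.28 (permutation p = 0.0129, adjusted 0.0494) and a rho of 0.34 (permutation p = 0.00223, adjusted 0.0134). Neither relation was past the threshold within a batch. For Sgk1 and Nr3c2, r was 0.22 (batch 2), 0.13 (batch 3), -0.15 (batch 4) and -0.48 (batch 6). For the receptors it was 0.05, 0.27, 0.29 and -0.17 in the same order.

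Fkbp5 and Sgk1 had opposite signs in different batches. In batch 6, r was 0.68 (n = 16, permutation p = 0.00353), with a rho of 0.68 (permutation p = 0.00496), and it was 0.69 without the 2 farthest rats. With each rat of batch 6 left out in turn, r lay between 0.64 and 0.75. In batch 3, r was -0.45 (n = 22, permutation p = 0.0348), with a rho of -0.39 (permutation p = 0.0718), and it was -0.57 without the 2 farthest rats. It was -0.29 in batch 2 (n = 15, permutation p = 0.289) and -0.04 in batch 4 (n = 26, permutation p = 0.852).

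Over the 24 tests of 6 pairs in 4 batches, 0 were past the threshold after adjustment. For Fkbp5 and Sgk1 the adjusted permutation p was 0.0847 in batch 6 and 0.417 in batch 3. Adjusted over the 6 pairs within each batch, it was 0.0212 in batch 6, past the threshold, and 0.209 in batch 3, so the call depends on the set of tests. The difference of the slopes between batches was tested itself, and the slope of Sgk1 on Fkbp5, in log2 units of Sgk1 per log2 unit of Fkbp5, was -0.36 (batch 2), -0.39 (batch 3), -0.02 (batch 4) and 0.95 (batch 6). That difference had an unadjusted limma p of 0.00258 and an adjusted one of 0.150 over all genes, of which 0.461% were called. With Fkbp5 regressed on Sgk1, the unadjusted p was 0.0106 and the limma adjusted p was 0.184, with 1.27% of genes called. The difference in sign was thus not past the threshold set over the whole table.

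**Figure D4:**
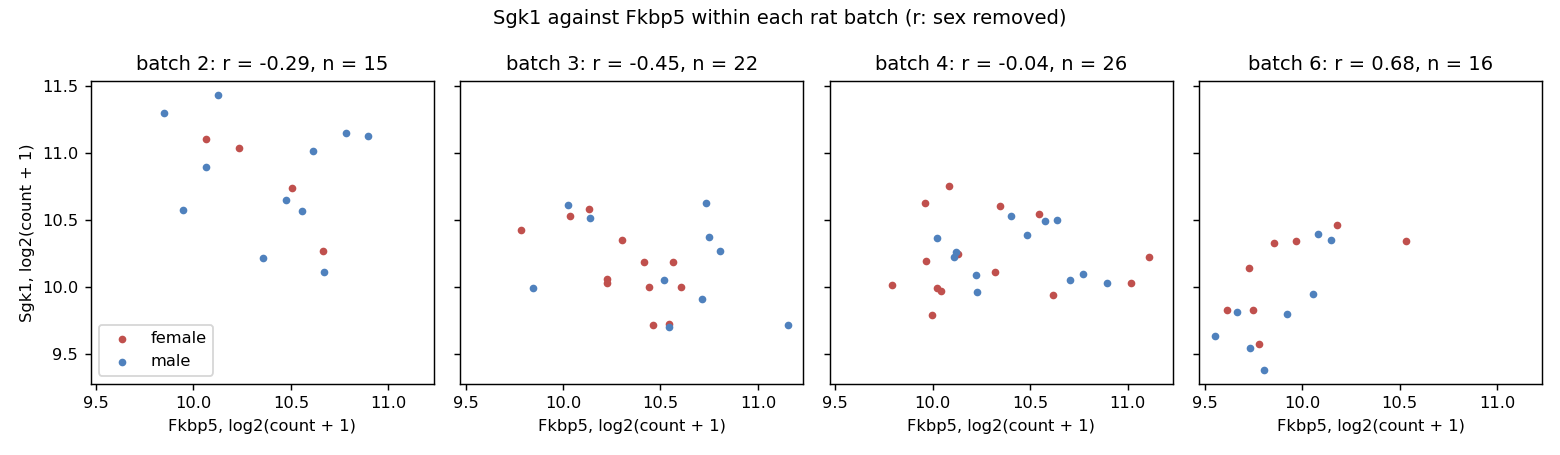
Sgk1 on the vertical axis against Fkbp5 on the horizontal axis, both as log2(normalized count + 1), in a panel for each of rat batches 2, 3, 4 and 6. Points are rats, females in red and males in blue, and each title gives Pearson's r with sex removed and the number of rats, from -0.45 in batch 3 to 0.68 in batch 6.

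The last comparison asked how many other genes varied with each of the 4 across the 79 rats, with sex and rat batch in the model. Among the 4, the receptors had the most, and the numbers differed widely. How many genes vary with a typical gene of the table was not worked out. With Nr3c1, 2826 genes rose (16.5% of the 17122 tested) and 2868 fell (16.8%). With Nr3c2, 1836 rose (10.7%) and 1380 fell (8.06%). With Fkbp5, 1082 rose (6.32%) and 967 fell (5.65%). Sgk1 had the fewest, 89 rising (0.52%) and 27 falling (0.158%). None of the other 3 genes of the group was among those called with any of the 4, and their limma adjusted p ranged upward from 0.329, that of Nr3c2 on Nr3c1.

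The partial correlation, with sex and rat batch removed, gives the likeness of a gene's pattern to that of the gene it was regressed on, over 79 rats. Most like Fkbp5 were ENSRNOG00000033883 with 0.78 and ENSRNOG00000013436 with 0.77, and most unlike it were ENSRNOG00000015020 with -0.68 and ENSRNOG00000009550 with -0.68. For Sgk1 these were ENSRNOG00000009565 with 0.69 and ENSRNOG00000007390 with 0.64, against ENSRNOG00000009227 with -0.56 and ENSRNOG00000043304 with -0.55. Nr3c1 was followed most closely by ENSRNOG00000029885 with 0.82 and ENSRNOG00000005736 with 0.81, and ran most opposite to ENSRNOG00000008052 with -0.76 and ENSRNOG00000013895 with -0.76. Nr3c2 was followed by ENSRNOG00000032656 with 0.77 and ENSRNOG00000001706 with 0.76, and ran opposite to ENSRNOG00000001596 with -0.61 and ENSRNOG00000051346 with -0.60. No table used here pairs these identifiers with gene names, so they are given as identifiers only.

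These numbers fell when the broad patterns of the table were put in the model. The first principal component of expression over all genes accounted for 49.7% of the variance of Nr3c2, 26.6% of that of Nr3c1, 20.5% of that of Sgk1 and 6.85% of that of Fkbp5. With the first 20 components in the model, the number of components used in the study's mapping, the genes called fell to 34 for Fkbp5, 16 for Sgk1, 3 for Nr3c2 and 0 for Nr3c1 by limma. Those 20 components accounted for 79.6% of the variance of Fkbp5, 72.1% of Sgk1, 86.2% of Nr3c1 and 81.3% of Nr3c2. What the components stand for was not tested.

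**Figure D5:**
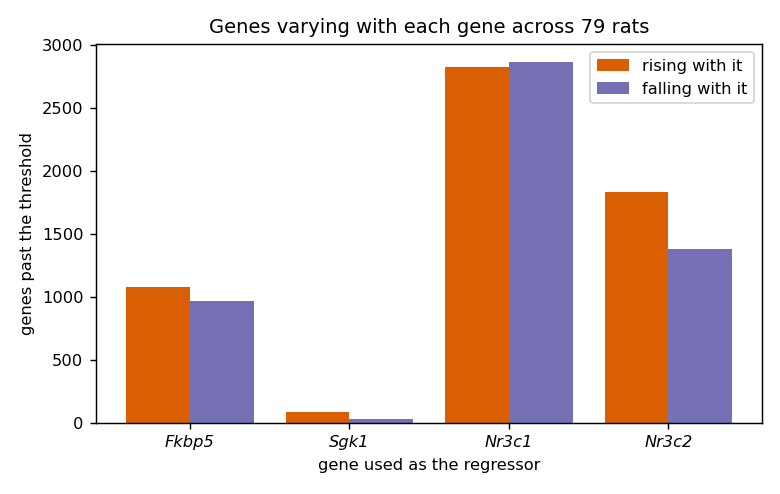
Number of genes past the threshold on the vertical axis that rose (orange) or fell (purple) with each of the 4 genes on the horizontal axis, across 79 rats with sex and rat batch in the model. Nr3c1 has 2826 rising and 2868 falling genes, and Sgk1 has 89 and 27.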

How the data were processed

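RNA-Seq data of 80 libraries from the orbitofrontal cortex of HS rats were used. Per the labels and the study's methods, the authors trimmed reads with cutadapt, estimated counts per gene with RSEM (Rnor_6.0), scaled them to the upper quartile with DESeq2, added a pseudocount of 1 and deposited log2 values. Raised to the linear scale, less the pseudocount, all values were whole within a relative departure of 3.47e-06, and depth was recovered from their steps, since the scaling removes it. Columns of per-sample values left unused numbered 0.

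Models were fitted to the deposited log2 values of all 17123 genes with limma 3.58.1 (R 4.3.3; lmFit, eBayes with a mean trend) and Benjamini-Hochberg adjustment, with a threshold of 0.05. Sex was tested with rat batch as a factor, and batch and its interaction with sex on 79 libraries, since batch 5 held 1 rat. Correlations used residuals after sex and batch, with 100000 two-sided permutations of rats within batch (smallest possible p 1e-05). Where no term was removed, rats were permuted over all 80 libraries without regard to batch. The models were tested on simulated data. Correlations and plots were made in Python 3.11.15 (numpy 2.4.6; scipy 1.17.1; matplotlib 3.10.9; tables read with pandas 2.3.3).

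Each library is 1 rat. The 4 genes and the lists were chosen with earlier results of these data known. Of the table's identifiers, 0 matched the RefSeq gene table, so the 7 pathway lists and 8 marker lists (132 symbols) were not applied. The genes named are therefore the 4 and, for each, the 2 most like and 2 most unlike by partial correlation among genes with a mean of at least 3, by identifier.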

Additional observations from a re-analysis of the deposited data

How the results depend on the processing

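Of the 48 alternatives for the sex difference, 39 kept its direction and 9 turned it, none past the threshold. The 20 components were computed with sex left in and can take up part of the sex term, so directions with them are not established. The male minus female difference became 0.082 for Sgk1 and -0.026 for Nr3c2 with no batch term, -0.46 (Fkbp5), 0.0047 (Sgk1), 0.16 (Nr3c1) and -0.35 (Nr3c2) with 20 principal components, -0.0065 and -0.00021 for Nr3c2 without rat batch 3 and without rat batch 4, and 0.032 for Sgk1 without rat batch 6. For the distance between batch means, 36 of 44 alternatives kept the call. With column run as a term the distance was 0.16 for Nr3c1 (limma adjusted p = 0.0636) and 0.19 for Nr3c2 (limma adjusted p = 0.699), whose order turned. With 20 components it was 0.48 for Fkbp5, 0.42 for Sgk1 and 0.10 for Nr3c1, none past the threshold, and 0.191 for Nr3c2, turned in order. In that model 1 gene of the table (0.00584%) was called between batches, so the lost calls are not particular to these 4. Without rat batch 2 it was 0.25 for Sgk1, and without rat batch 6 it was 0.062 for Fkbp5. All 16 alternatives for the interaction kept its call.

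The numbers of co-varying genes with 20 components were 34 (Fkbp5), 16 (Sgk1), 0 (Nr3c1, limma) and 3 (Nr3c2), and 16 of 20 alternatives stayed within 1.5 times the value given. A column run term gave 1958 for Fkbp5, 145 for Sgk1, 4622 for Nr3c1 and 2516 for Nr3c2. A depth term, chosen after the data were seen, gave 2180, 109, 5809 and 3199 in the same order. The residual SD with 20 components was 0.186 for Fkbp5, 0.252 for Sgk1, 0.0795 for Nr3c1 and 0.161 for Nr3c2.

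For the correlations, 66 of 84 alternatives kept sign and call. Fkbp5 and Sgk1 gave 0.12 with no term removed and 0.68 in batch 6 (permutation p adjusted over the 6 pairs of that batch, 0.0212). With 20 components they gave 0.27 (permutation p = 0.0136, adjusted 0.0409). The permutations made no allowance for the components removed, so that p is too small. The same limit holds for Fkbp5 and Nr3c1 at -0.43 with 20 components (adjusted permutation p = 0.00192), and this pair gave 0.24 in batch 3 and 0.18 in males. Fkbp5 and Nr3c2 gave -0.12 with no term removed and -0.38 in batch 6, and Sgk1 and Nr3c1 gave 0.28 in batch 6. Sgk1 and Nr3c2 gave -0.27 with no term removed, -0.0050 with a run term, -0.029 as Spearman's rho, -0.15 in batch 4, -0.48 in batch 6 and -0.19 in females. Nr3c1 and Nr3c2 gave 0.28 with no term removed (past the threshold, with rats permuted across batches), -0.18 with 20 components and -0.17 in batch 6. The cause of these changes was not tested.

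The comparisons inside column runs and those leaving out single rats of batch 6 were also chosen after the data were seen. The alternative with cell type marker terms was not run, since 0 names were matched. No paired analysis was possible because replicate numbers follow the order of accession and pair no rats. Depth limits Nr3c2 most, and recovered reads cover counting error only.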
